A study of Chelidonium majus with 4 samples.

Results

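The contigs examined here are 4 that the study labels *CNMT*, coclaurine N-methyltransferase, in the assembled *Chelidonium majus* transcriptome, out of 232701 contigs in the table. The contigs were TR9581|c227040_g1_i1, TR9583|c227042_g1_i1, TR271211|c114617_g1_i1 and TR72971|c194735_g1_i1, called TR9581, TR9583, TR271211 and TR72971 from here on. The label stands in the study's drawing of the alkaloid pathway and was not checked here, since no contig sequences were used. Whether the 4 contigs come from 1 gene or several is not known from the table, and a sum over them is a sum of labelled contigs. They were chosen by their measured counts in root and leaf, 3 because they were higher in root and 1, TR72971, because it was higher in leaf. The direction of the difference between tissues was therefore fixed by the choice, and it is described here without a test.

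CNMT moves a methyl group from S-adenosylmethionine to the nitrogen of (S)-coclaurine, which gives (S)-N-methylcoclaurine. The step lies between norcoclaurine synthase (*NCS*), which makes the first benzylisoquinoline of the pathway, and the hydroxylase *CYP80B1*, and it leads towards (S)-reticuline, from which sanguinarine, berberine and the morphinans branch. CNMT belongs to a family of related plant N-methyltransferases that also holds *TNMT*, tetrahydroprotoberberine cis-N-methyltransferase of the sanguinarine branch.

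RNA of *C. majus*, greater celandine, a medicinal plant of the poppy family, was sequenced from leaf (libraries leaf 3 and leaf 4) and from root (libraries root 2 and root 4). All libraries carry the same ecotype label, that of a high producer of the alkaloid chelidonine, and the plants were grown in a greenhouse with no treatment named. Neither plant age nor the number of plants behind a library is given in the sources used here. The study speaks of biological replicates, yet no source ties a library to a plant of its own, so p-values reflect only how far these libraries differ, and that spread may be technical. The table names contigs and no genes, so the tissue labels were not checked against marker genes.

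Estimated counts came to between 15281682 and 19781065 per library. The scaling factors (TMM) were 1.03 and 1.09 in leaf, but 0.729 in root 2 and 1.23 in root 4. A set of 33 contigs numbered c1 to c33 held 22.1% of all counts in root 2 and 2.41% in root 4, against 8.02% and 0.323% of leaf 3 and leaf 4. Levels are given as TMM-normalized CPM, that is counts relative to the scaled size of the library. They are not divided by contig length, which the table does not hold, so a level or a share may be compared between tissues for 1 contig, but not between contigs as a number of molecules. In whole organs, fewer cells of a type and less RNA per cell cannot be told apart.

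TR9583, the root-high contig with the most counts, had 725 and 933 counts in leaf 3 and leaf 4, and 2494 and 3279 in root 2 and root 4. Its level was 40.0 and 45.2 normalized CPM in the leaf libraries and 177 and 185 in the root libraries. Both root libraries lay above both leaf libraries, with no overlap. The root mean of 181 ± 5.35 was 4.25 times the leaf mean of 42.6 ± 3.62 (SD, n = 2 libraries in each tissue), and over the 4 possible pairs of a root and a leaf library the ratio ran from 3.93 to 4.62. Divided by library totals alone, its root values were 126 and 215 CPM, so the agreement of the root libraries rests on the scaling.

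TR9581 bears a number next but 1 to that of TR9583. It had 152 and 157 counts in leaf 3 and leaf 4 and 476 and 730 in root 2 and root 4. Its normalized level was 8.39 and 7.60 CPM in leaf and 33.8 and 41.1 CPM in root, again without overlap. The ratio of the root to the leaf mean was 4.69, from 4.03 to 5.41 over the pairs of libraries.

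TR271211 had counts in root alone. It had 0 counts in both leaf libraries, 22 in root 2 and 56 in root 4, which is 1.56 and 3.16 normalized CPM. With 3 counts over both leaf libraries in place of 0 (a level of 0.0774 normalized CPM), the root mean was at least 30.5-fold higher. This limit rests on root 4, since it is 20.2-fold with root 2 alone and 40.8-fold with root 4 alone. A count of 0 does not show that the transcript is absent from leaf, and the 78 counts behind this contig make it the least precisely measured of the root-high contigs.

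TR72971, the leaf-high contig, had 282 and 436 counts in leaf 3 and leaf 4, and 5 and 21 in root 2 and root 4. The normalized level was 15.6 and 21.1 CPM in leaf against 0.355 and 1.18 CPM in root. The lowest leaf library thus stood above the highest root library by a ratio of 13.2, and the other pairs reached up to 59.4. The leaf to root ratio of the means was 23.8, with a value of 51.6 when root 2 alone is used for root and 15.5 when root 4 alone is used.

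**Figure D1:**
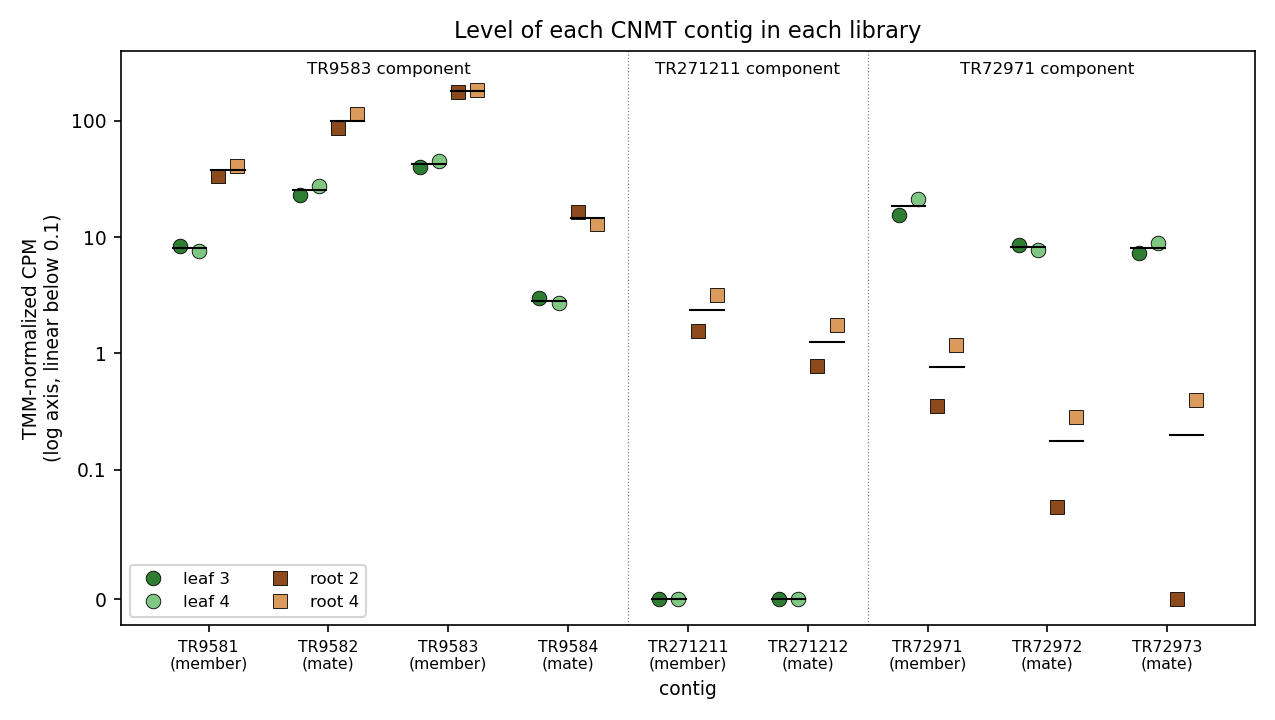
TMM-normalized CPM (vertical axis, logarithmic above 0.1 and linear below) of the 4 *CNMT* contigs and of the other 5 contigs of the same assembly components, 1 point per library (member marks the 4 chosen contigs, mate the others), with a line at the mean of the 2 libraries of a tissue. Contigs of the TR9583 and TR271211 components were higher in root (squares), for example TR9583 at 177 and 185, and those of the TR72971 component were higher in leaf (circles), for example TR72971 at 15.6 and 21.1.

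The differences between replicate libraries were not used in choosing the contigs. In leaf, the ratio of leaf 4 to leaf 3 was 1.13 for TR9583 (95% Clopper-Pearson interval 1.02 to 1.24), 0.905 for TR9581 (0.720 to 1.14) and 1.35 for TR72971 (1.16 to 1.58). These and all other intervals cover counting error only. In root, the ratio of root 4 to root 2 was 1.04 for TR9583 (0.989 to 1.10) and 1.22 for TR9581 (1.08 to 1.37). The contigs with few counts in root lay further apart. TR271211 was 2.02-fold higher in root 4 (1.21 to 3.47) and TR72971 3.33-fold higher (1.22 to 11.3). For comparison, the median gap between root libraries was 1.48-fold over 44965 tested contigs with counts in both, and between leaf libraries 1.20-fold over 45434. A larger gap than that of TR72971 in root was found in 8.84% of these contigs, and a larger one than that of TR9583 in 94.3%. These contigs span all count levels and were not matched to TR72971 (5 and 21 root counts) or TR9583 (2494 and 3279). With so few counts and an interval of 1.22 to 11.3, the root level of TR72971 is poorly fixed by these libraries.

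The summed counts of the 4 contigs were 1159 and 1526 for leaf 3 and leaf 4, and 2997 and 4086 for root 2 and root 4. After scaling, the mean sum of the leaf libraries was 68.9 ± 6.96 CPM, and that of the root libraries was 222 ± 12.2 CPM (SD over 2 libraries), which is 3.22 times as high. This is less than the ratio of TR9583 alone, since TR72971 adds to the leaf sum.

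In the summed counts, TR9583 held the largest share in every library. The share was 62.6% for leaf 3 (95% Clopper-Pearson interval 59.7 to 65.3) and 61.1% for leaf 4 (58.6 to 63.6). Its root shares were 83.2% for root 2 (81.8 to 84.5) and 80.2% for root 4 (79.0 to 81.5). TR72971 came next in leaf, with 24.3% of leaf 3 (21.9 to 26.9) and 28.6% of leaf 4 (26.3 to 30.9). In root its share was 0.167% of root 2 (0.0542 to 0.389) and 0.514% of root 4 (0.318 to 0.785). TR9581 therefore held the next place in root, with 15.9% (14.6 to 17.2) and 17.9% (16.7 to 19.1) of root 2 and root 4, whereas it took 13.1% (11.2 to 15.2) and 10.3% (8.81 to 11.9) of leaf 3 and leaf 4. TR271211 made up 0.734% (0.461 to 1.11) and 1.37% (1.04 to 1.78) of the root sums and 0% of the leaf sums, where 3 counts would be 0.259% and 0.197%. For all 4 contigs the shares of the leaf and the root libraries did not overlap. Nothing is read from this, since the difference between tissues entered the choice of contigs and each tissue has 2 libraries. Since the shares of a library add up to 100%, the lower shares of TR9583 and TR9581 in leaf go with the higher share of TR72971 and are not separate results.

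**Figure D2:**
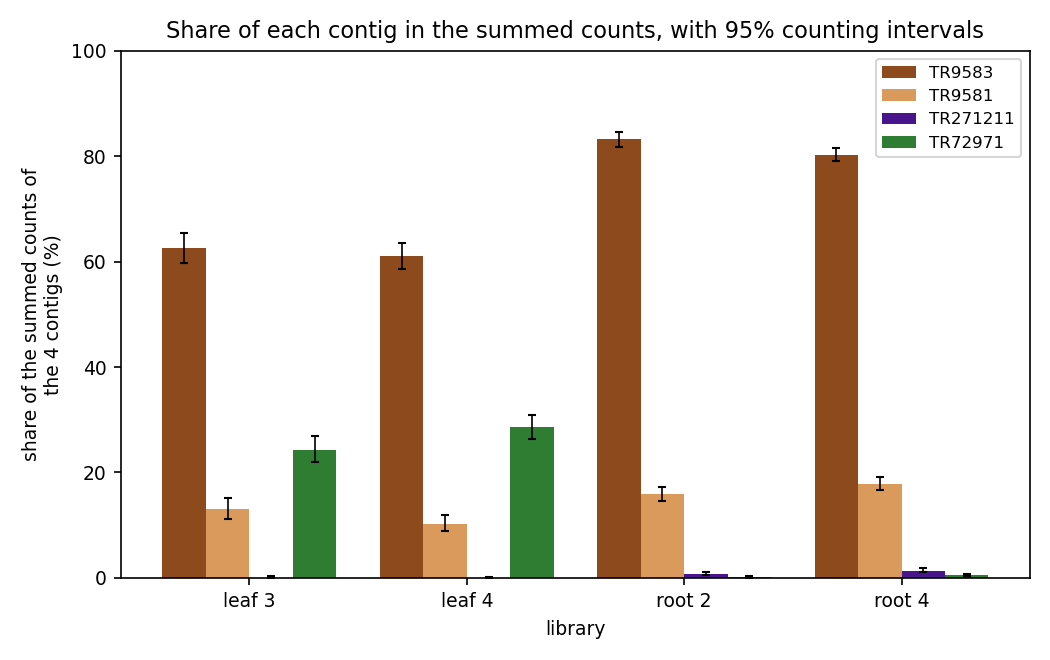
Share of each of the 4 *CNMT* contigs in their summed counts (vertical axis, %) as bars for each library, with 95% Clopper-Pearson intervals as thin lines. TR72971 held 24.3% and 28.6% in the leaf libraries and 0.167% and 0.514% in the root libraries, while TR9583 held the largest share in all 4.

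Read as a component number followed by a contig number, the identifiers place the 4 contigs in 3 components, that is in sets of contigs assembled together. No source states this numbering. TR9581 and TR9583 share a component, called the TR9583 component here, and TR271211 and TR72971 lie in a component each, named after them in the same way. These components hold 9 contigs in all, so that 5 further contigs can be set beside the 4: TR9582|c227041_g1_i1, TR9584|c227043_g1_i1, TR271212|c114618_g1_i1, TR72972|c194736_g1_i1 and TR72973|c194737_g1_i1. Some of these mates also stand among the contigs that the study labels *CNMT*. Contigs of 1 component can share sequence, and RSEM divides reads that match several contigs, so the mates are not separate observations.

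Every mate was higher in the tissue in which the chosen contig of its component was higher. Counts of TR9582 were 416 and 567 for leaf 3 and leaf 4, and 1220 and 2011 for root 2 and root 4, more than any other of these 9 contigs except TR9583. Scaled, these are 23.0, 27.4, 86.7 and 113 normalized CPM in the same order. TR9584 was lower in counts, with 54 and 56 in leaf and 232 and 229 in root. TR271212, like TR271211, had 0 counts in both leaf libraries, with 11 in root 2 and 31 in root 4, which puts the root mean at least 16.3-fold above leaf when 3 counts stand for the 0 in leaf (10.1-fold with root 2 alone). TR72972 had 156 and 161 counts in leaf and 1 and 5 in root, and TR72973 had 132 and 184 in leaf and 0 and 7 in root. No mate had root and leaf libraries that overlapped. The share of all tested contigs without such an overlap was not counted. With 2 libraries in each tissue nothing is read from this separation, here or for the chosen contigs.

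Of the 4 chosen contigs, none was called by edgeR's quasi-likelihood test at the limits of the study, a 4-fold difference and an FDR under 0.001. Over all 47385 tested contigs, 0.443% passed with a higher root level and 1.45% with a higher leaf level. At an unadjusted p under 0.05, by edgeR's exact test and by DESeq2, 3 of them passed in root and 1 in leaf. The choice used this contrast, so nothing is read from these counts. TR271211 also passed the filter on low values through the root libraries alone, so a root difference was built into its entry. Of the 5 mates, 4 passed the filter on low values and TR271212 did not. TR72972 and TR72973 passed it through the leaf libraries alone, so a leaf difference was built into their entry, and the counts of mates that follow are a description. None of the 4 was called by the same test, with FDR values from 0.00201 to 0.00734. At an unadjusted p under 0.05, 2 were higher in root and 2 in leaf, where 24.1% and 23.2% of tested contigs were. With edgeR's exact test 1 was called higher in root and 2 in leaf (background 10.0% and 13.0%), and DESeq2 gave the same counts (background 8.76% and 10.4%). Without leaf 3 or without leaf 4 only 2 mates passed the filter. Calls from fits without 1 library are not given here, since 1 tissue is then left with 1 library. Such calls appear only where the dependence on the processing is described, and nothing is read from them.

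The fold limit of the study runs through the TR9583 component. The fitted log2 fold change of root over leaf was 2.09 (standard error 0.28) for TR9583, just above the limit of 2, and 1.99 (standard error 0.30) for TR9582, just below it. The 2 values lie closer together than either standard error. Library totals in place of TMM scaling lower the median over all tested contigs by 0.12. With them TR9583 also fell below the limit, at 1.98, and TR9582 was at 1.92. TR9581 and TR9584 stayed above it, at 2.23 and 2.37 with TMM scaling and at 2.15 and 2.21 with library totals.

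Ratios of 2 contigs within a library do not depend on the scaling, and contig length drops out when such a ratio is compared between tissues. In the TR9583 component these ratios overlapped between leaf and root. TR9581 had 0.210 and 0.168 counts per count of TR9583 in leaf 3 and leaf 4, and 0.191 and 0.223 in root 2 and root 4. For TR9582 the ratio to TR9583 was 0.574 and 0.608 in leaf and 0.489 and 0.613 in root. For TR9584 it was 0.0745 and 0.0600 in leaf and 0.0930 and 0.0698 in root. In all 3 cases the leaf and root values overlapped, and the geometric mean in root was 1.10, 0.928 and 1.21 times that in leaf, in the order given. TR9581 and TR9583 were both chosen as higher in root, so the likeness of their ratio over the tissues is partly fixed by the choice. No test is given, since 2 libraries against 2 allow no exact permutation test to go below 0.333 (two-sided), and overlap does not show that the ratios are equal.

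Between components the ratios differed, in directions that the choice of contigs fixed. TR72971 had 0.389 and 0.467 counts per count of TR9583 in the leaf libraries. In root 2 it had 0.00200 (95% interval 0.000650 to 0.00468) and in root 4 it had 0.00640 (0.00396 to 0.00981). The geometric mean of the ratio was 119-fold higher in leaf, or 213-fold with root 2 alone and 66.6-fold with root 4 alone. TR271211 had 0.00882 (0.00552 to 0.0134) and 0.0171 (0.0129 to 0.0222) counts per count of TR9583 in root 2 and root 4. In leaf the upper limits that 0 counts allow were 0.00510 and 0.00396.

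**Figure D3:**
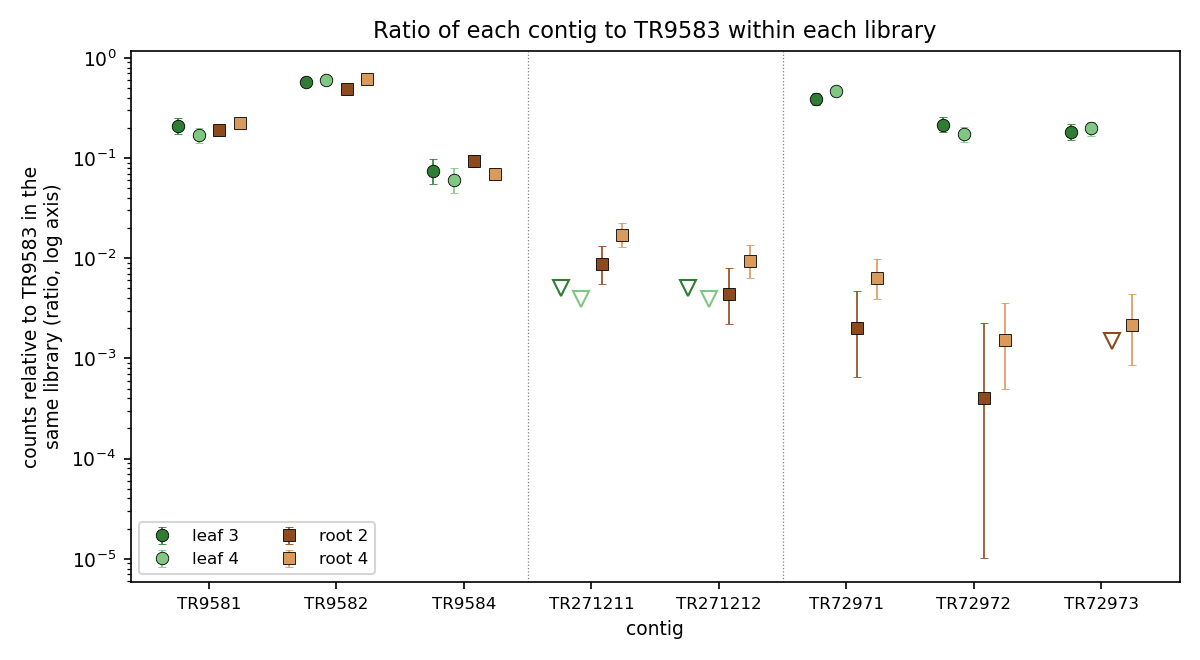
Counts of each contig relative to TR9583 in the same library (vertical axis, logarithmic), with 95% Clopper-Pearson intervals, and open triangles at the upper limit where a library had 0 counts. The contigs of the TR9583 component (left) kept overlapping ratios in leaf and root, from 0.168 to 0.223 for TR9581, whereas TR72971 (right) stood at 0.389 and 0.467 in leaf and at 0.00200 and 0.00640 in root.

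Within the TR72971 component the counts in root were too few for such a comparison. TR72971 took 49.5% of the counts of its component in leaf 3 and 55.8% in leaf 4. In root it took 5 of 6 counts in root 2 and 21 of 33 in root 4, and the intervals of these shares (35.9 to 99.6% and 45.1 to 79.6%) hold the leaf values. In the TR271211 component, TR271211 took 66.7% of the counts in root 2 and 64.4% in root 4.

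Summed by component, the TR9583 component had a leaf mean of 78.6 ± 6.02 and a root mean of 333 ± 26.8 normalized CPM (SD over 2 libraries), a root to leaf ratio of 4.24. The TR72971 component had means of 34.6 ± 4.47 and 1.14 ± 1.01 for leaf and root, a leaf to root ratio of 30.3 that is 81.2 with root 2 alone and 18.6 with root 4 alone. The TR271211 component had 0 counts in leaf and 2.35 and 4.90 normalized CPM in root 2 and root 4. Of the counts of all 9 contigs, the TR72971 component made up 29.7% and 31.3% in the leaf libraries and 0.134% and 0.518% in the root libraries. The TR9583 component made up 70.3% and 68.7% in leaf and 99.1% and 98.1% in root. In both tissues most of the counts of the 9 contigs thus came from the TR9583 component. For all 9 contigs together the root to leaf ratio was 2.98.

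Other steps of the pathway were followed through 12 contigs of *TYDC*, tyrosine/dopa decarboxylase, *NCS*, *CYP80B1* and *TNMT*, all from the study's pathway drawing, which drew on these same libraries, so their direction is no separate evidence. The list leaves out the other steps of that drawing, whose direction is not reported here. It does not stand for the whole pathway, and whether other steps are higher in leaf cannot be read from it. Of the 12, 7 passed the filter on low values through both tissues and 5 through the root libraries alone, which builds a root difference into their entry. All 12 had a higher estimate in root. Called higher in root by the quasi-likelihood test were 3 of the 12, all of *NCS*, beside the background of 0.443%, 2 of them (TR32821 and TR32822) among the contigs that passed through root alone, and 0 were called higher in leaf, as with the exact test, with DESeq2 and at an unadjusted p under 0.05. The exact test called 12 higher in root and DESeq2 called 11, beside backgrounds of 10.0% and 8.76%. The backgrounds for higher in leaf were 1.45% (quasi-likelihood test), 13.0% (exact test) and 10.4% (DESeq2). The median log2 fold change of the 12 was 3.67, beside 0.01 over all tested contigs, and the values ran from 2.02 to 10.88. TR72971, at a fitted log2 fold change of -4.52 (standard error 0.55), and its mates at -5.41 and -5.20 lay outside that range, while TR9583 and TR9581, at 2.09 and 2.23, lay near its lower end. Without root 2 or without root 4 only 7 of the 12 passed the filter.

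The nearest of these pathway contigs to TR9583 in its pattern over the 4 libraries was one of *CYP80B1*, the hydroxylase that uses the product of CNMT. Likeness was taken as the root mean square distance between log2 levels, with 0.5 CPM added and each contig centred on its own mean. TR127110|c35122_g1_i1 of *CYP80B1* reached 8.73 and 9.82 normalized CPM in the leaf and 36.2 and 38.9 in the root libraries, at a distance of 0.0588 from TR9583. TR9581 lay nearest to another contig of *CYP80B1*, TR12712|c35114_g1_i1, at a distance of 0.115. All 3 contigs of *CYP80B1* lay within 0.25 of both TR9583 and TR9581, and none of the 9 other pathway contigs did. The distance depends largely on the size of the root to leaf ratio, which entered the choice of the contigs. The pathway list was also chosen with these data known, so the likeness is partly fixed by the choice and is only described. By their numbers the 3 belong to 1 component, so they may share reads and are not 3 separate matches. Of the tested contigs outside the components, 2.30% lay within 0.25 of TR9583 and 1.76% within 0.25 of TR9581, so the pattern is common. TR271211 and TR72971 had no pathway contig within 0.25, the nearest being at 0.348 and 2.98.

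Among all tested contigs outside the 3 components, TR51632|c162113_g1_i1 and TR194002|c92243_g1_i1 had the patterns most like that of TR9583, at distances of 0.0168 and 0.0216. For TR9581 these were TR175171|c83210_g1_i1 (0.0190) and TR85961|c213172_g1_i1 (0.0287). For TR271211 they were TR176441|c84022_g1_i1 and TR175962|c83700_g1_i1, both at 0.0196, each with 0 counts in leaf and 22 and 54 in root. The pattern of TR72971 had the fewest contigs within 0.25 among the 4, with 90 of 47377 (0.190%). That pattern includes its large leaf to root ratio, which entered the choice, and root counts of only 5 and 21. The low number is therefore not read as a trait of the contig. The sources used here give these contigs no name of a gene, and the 0.5 CPM added draws contigs of low level together.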

How the data were processed

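Reads were mapped by the authors with Bowtie onto the BinPacker contigs. They estimated abundances with RSEM and deposited the estimated counts of all libraries as 1 table, in which all values are whole numbers. RSEM and edgeR are the tools in the submitters' processing notes. Versions of RSEM and Bowtie are not given in the sources used here.

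Of 232701 contigs, the 47385 above 1 CPM in 2 or more libraries entered the test. After TMM scaling, tissues were compared in edgeR 4.0.16 (R 4.3.3) with the quasi-likelihood F test and Benjamini-Hochberg adjustment over all tested contigs. Depth was 15281682 to 19781065 counts per library, so that 1 count is 0.0506 to 0.0654 CPM. The script was tested on simulated data. Shares and ratios have exact 95% Clopper-Pearson intervals.

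The members and lists were chosen with earlier results of these data known. Component mates were found by identifier alone. The text names the 4 contigs, their mates, contigs of the pathway list, and the 2 contigs most like each member in their levels over the 4 libraries. Alternatives tried were DESeq2 1.42.0, the exact test of edgeR, other scalings and pseudocounts, no filter, other denominators, and each library left out in turn. Sequences of the contigs were not used here.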

Additional observations from a re-analysis of the deposited data

How the results depend on the processing

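Each of the 4 contigs kept its direction under every scaling, filter and pseudocount tried and without each library, a direction that the choice of contigs fixed. The number of contigs called over the whole table, 210 higher in root and 688 higher in leaf, was 4741 and 6168 by the exact test of edgeR, 4152 and 4914 by DESeq2, and 7594 and 5488 without the filter. Leaving out 1 library gave 0 to 2843 in root and 0 to 7632 in leaf, the 0 being without leaf 4, where 6003 and 4847 contigs had an unadjusted p under 0.05 by edgeR's quasi-likelihood test. Of the mates, 0 called in either direction became 1 in root and 2 in leaf with DESeq2 and likewise with the exact test, and 2 and 2 without the filter. Of the pathway contigs, 3 called in root became 12, 11 and 11 with the exact test, DESeq2 and no filter, and 0 to 7 without 1 library. The cause was not tested. Without 1 library, 1 tissue is left with 1 library, so nothing is read from the calls of those fits. All 12 pathway contigs were tested when a leaf library was left out, but only 7 when a root library was. The log2 ratio of TR9583, 2.07 with 0.5 CPM added, ran from 1.80 to 2.13 without 1 library. That of TR271211, 2.52, was 4.62 with 0.1 CPM and 1.75 with 1 CPM added, since its leaf counts are 0. With all 9 contigs in the sum, the shares are lower by construction: 7.11% in leaf and 11.1% in root for TR9581, 37.6% and 53.7% for TR9583, and 16.1% in leaf for TR72971. No paired analysis was possible because no source pairs a root library with a leaf library.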

Other observations

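Among the contigs outside the 3 components, TR120541|c26949_g1_i1 was nearest in pattern to TR72971 (distance 0.0698) and was also close to it in counts. It had 258 and 380 counts in leaf 3 and leaf 4 and 4 and 21 in root 2 and root 4, beside 282, 436, 5 and 21 for TR72971. TR4581|c152710_g1_i1 followed at a distance of 0.106, with 264, 346, 4 and 20 counts in the same order. The sources used here pair neither with a gene.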
